A study of Schizosaccharomyces pombe with 2 samples.

Results

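The ght genes of fission yeast (Schizosaccharomyces pombe), ght1 to ght8, encode the hexose transporter family. They were located in a Hi-C contact map by taking every 10 kb bin that overlaps one of the 8 genes and has values. That gave 9 bins of the 1218 with values, because ght7 crosses a bin border and each other gene lies in 1 bin. All 8 genes were measured. The family was chosen by measured values of this same map, the high contact of the ght5 and ght6 bins with ends of chromosomes I and II. Those values are therefore given as a description and carry no test. At the right end of I the contact of these 2 bins was not above the mean contact between chromosomes.

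The cells carried the mutation sap1-1. Sap1 is a DNA-binding protein that fission yeast cannot live without. Cultures in logarithmic growth in rich medium were kept at 26 °C, moved to 33 °C for 6 hours, and fixed in 3% formaldehyde for 20 min at 26 °C. The labels list 2 biological replicates in 1 group. Every sample carried the allele and had the temperature shift, and there was no strain or culture without them. The values form 1 map, and whether it holds both replicates is not stated, so no replicate error is known and no value here is a change caused by sap1-1 or by temperature. Intervals are 95% Poisson limits on reads and cover counting error only.

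Hexose transporters are membrane proteins that carry glucose and related sugars into the cell, where hexokinase phosphorylates them. In fission yeast, Ght5 is the high-affinity glucose transporter on which growth in low glucose depends, Ght6 also transports fructose, and Ght3 is known as a gluconate transporter. Sugar transporter genes of yeasts often form families of recent copies, and several lie near chromosome ends. In fission yeast the ends of I and II gather at the nuclear periphery, while the ends of III border the ribosomal DNA arrays.

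The family was uneven in sequence. Over the 28 pairs of genes, identity of the aligned coding sequence ranged from 63.1% to 92.2%, with a median of 71.0%. The most alike were ght5 and ght8 at 92.2%, followed by ght3 and ght4 at 81.8%. Coding lengths ran from 1557 bases for ght7 to 1674 for ght1 and ght4. In 8 of the 28 pairs the genes shared at least 1 identical word of 30 bases, a length at which a short read could be placed at either copy.

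The longest identical stretches are shown because they are where reads of these copies cannot be told apart. ght3 and ght4, on different chromosomes, share 240 bases, and ght5 and ght8, neighbours on III, share 248. The sequences are from the RefSeq genome given for this work (assembly ASM294v3), whose chromosome lengths equal those of the map, for which the submitters' processing notes name ASM294v2. Each is written 5′ to 3′ on the gene's strand, with the shared stretch in capitals between 15 flanking bases. The shared stretches lie at chrI:83791-84030 (plus strand) in ght3, chrII:158410-158649 (plus) in ght4, chrIII:213319-213566 (plus) in ght5 and chrIII:227147-227394 (minus) in ght8.
ght3: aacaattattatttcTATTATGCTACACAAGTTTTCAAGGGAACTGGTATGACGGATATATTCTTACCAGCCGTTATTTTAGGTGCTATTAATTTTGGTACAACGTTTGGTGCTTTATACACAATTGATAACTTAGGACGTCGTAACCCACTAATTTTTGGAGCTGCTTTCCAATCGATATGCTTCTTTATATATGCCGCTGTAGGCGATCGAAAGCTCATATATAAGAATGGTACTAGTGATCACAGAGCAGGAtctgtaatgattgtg
ght4: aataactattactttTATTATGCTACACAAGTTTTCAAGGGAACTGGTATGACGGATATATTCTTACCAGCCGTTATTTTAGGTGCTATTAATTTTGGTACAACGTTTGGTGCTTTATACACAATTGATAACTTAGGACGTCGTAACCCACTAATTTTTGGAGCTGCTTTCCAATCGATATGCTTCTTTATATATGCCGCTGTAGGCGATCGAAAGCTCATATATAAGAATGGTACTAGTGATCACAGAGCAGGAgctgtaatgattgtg
ght5: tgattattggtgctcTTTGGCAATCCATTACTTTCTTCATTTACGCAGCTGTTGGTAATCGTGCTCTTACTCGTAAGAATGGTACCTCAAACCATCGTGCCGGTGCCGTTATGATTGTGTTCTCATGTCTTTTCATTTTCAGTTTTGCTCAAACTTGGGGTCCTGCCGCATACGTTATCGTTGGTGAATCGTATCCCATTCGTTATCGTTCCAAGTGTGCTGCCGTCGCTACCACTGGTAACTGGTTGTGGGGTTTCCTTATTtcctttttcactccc
ght8: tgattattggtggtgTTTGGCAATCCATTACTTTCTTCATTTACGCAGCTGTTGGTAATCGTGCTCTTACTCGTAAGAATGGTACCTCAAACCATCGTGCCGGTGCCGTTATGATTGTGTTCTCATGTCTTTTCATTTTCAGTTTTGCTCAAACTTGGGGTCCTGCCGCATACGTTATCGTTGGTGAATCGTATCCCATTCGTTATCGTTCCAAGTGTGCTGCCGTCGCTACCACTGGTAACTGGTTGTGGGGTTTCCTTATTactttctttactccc

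A Hi-C read starts beside a HindIII site, so the sites bear on which part of a gene is read. How reads were assigned to bins is not given in the sources used here. The bin that starts at chrIII:250001 holds no site yet had 30959 reads, so reads of a bin need not start beside a site within it. The nearest site lay 199 bases from the shared stretch in ght3 and 419 bases from that in ght5, but 1890 bases away in ght4 and 1436 bases away in ght8. ght2, ght3 and ght5 each hold 2 sites, ght7 holds 1, and ght1, ght4, ght6 and ght8 hold none. Sites of ght5, ght3 and ght7 are shown with the site in capitals, on the plus strand. The ght5 sites shown are 107 bases before the gene's start (chrIII:212206-212211) and within it (chrIII:213985-213990), the ght3 sites are at chrI:83108-83113 and chrI:84229-84234, and the ght7 site is at chrII:38631-38636. The other site within ght5, at chrIII:214007-214012, is the lower-case aagctt that ends the sequence of the site in that gene.
ght5, before the gene: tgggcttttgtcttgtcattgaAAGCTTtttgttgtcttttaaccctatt
ght5, in the gene: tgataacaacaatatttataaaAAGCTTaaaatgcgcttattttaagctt
ght3, first site: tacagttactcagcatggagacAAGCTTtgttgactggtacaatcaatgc
ght3, second site: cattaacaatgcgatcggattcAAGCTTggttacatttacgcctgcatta
ght7, in the gene: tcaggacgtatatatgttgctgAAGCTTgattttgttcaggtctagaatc

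The bases beside these sites were unique in part. In the 250 bases to the right of the site before ght5, 44.8% of 30-base words occur elsewhere in the genome, and in the 250 bases to the left of the second ght3 site, the one nearest the stretch shared with ght4, 26.2% do. Beside the first ght3 site and the ght7 site none do. ght8 and ght1 lie on a single HindIII fragment of 10.8 kb that reaches into both of their bins. Which of those bins its reads were counted in is not known. The fragment of ght6 is 8.43 kb long and ends at the site before ght5, inside the ght5 bin. Bins that share a fragment are not independent of each other.

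Most of the family lies toward the ends of the assembled chromosome sequences. ght7 begins 38.5 kb from the left end of II and ght3 82.9 kb from the left end of I. ght4 lies 156 kb from the left end of II. The 4 genes on III form a cluster of 30.5 kb on the left arm, with ght6 at 205 kb, ght5 at 212 kb, ght8 at 226 kb and ght1 at 232 kb from the end. Within it ght6 and ght5 are on the plus strand and ght8 and ght1 on the minus strand. ght2 stands apart, 1110 kb from the right end of II. Thus 7 of the 8 genes lie within 232 kb of an end, a distance that holds 9.74% of the 5113 coding genes (498 genes), and 2 lie within 100 kb, where 3.70% of coding genes lie. The distance of 232 kb was set by the seventh member itself. The 4 genes on III are neighbours in the cluster, so they are not 4 separate positions to set against a share of genes. All distances run to the end of the assembled sequence, and the ends of III border the ribosomal DNA arrays. How far the cluster lies from the end of the chromosome itself was not measured. The count of 7 is therefore a description.

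Each gene's place in the annotation is as follows. ght3 occupies chrI:82936-84786 (plus), beside shu1 and str3, genes of haem uptake. ght7 occupies chrII:38514-40143 (minus), with 1487 of its bases in the first bin and 143 in the second. ght4 occupies chrII:155772-159570 (plus) and shares its bin with mal1, which encodes a maltase, and urh1. ght2 occupies chrII:3427160-3429424 (plus), near usp102 and vps25. On III, ght6 occupies chrIII:204733-206717 (plus), near mug146 and mpc1, the latter a subunit of the mitochondrial pyruvate carrier. ght5 occupies chrIII:212313-214376 (plus), near dga1, a diacylglycerol acyltransferase gene. ght8 occupies chrIII:226336-228845 (minus), near dbl5 and urm1. ght1 occupies chrIII:232288-235195 (minus), near gcd1, a glucose dehydrogenase gene.

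The bins of the family were read less deeply than most. Over all bins the reads per bin ran from 7686 to 98119, with a median of 58761.5. The ght3 bin had 57162 reads, ght6 45683, ght4 43097, ght1 40936, ght5 37894 and ght2 34478. The ght8 bin had 17822 reads, ght7's first bin 13690 and its second 16567. All 9 bins were below the median, and 23 bins of the map had fewer reads than the ght8 bin. Words of 30 bases that occur elsewhere in the genome made 34.8% of the ght8 bin and 16.2% of the ght5 bin, against a median of 0% over all bins and at most 2.55% in the other ght bins. The part that low reads play in the contacts of ght8 and ght7 was not tested. Nor was the part that repeated sequence plays in those of ght8 and ght5.

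Contact is given as a fold, the mean corrected contact divided by the mean of inter-chromosomal pairs of arm bins, which was 12.5 corrected units. An arm bin lies at least 200 kb from an end and 100 kb from a centromere midpoint, which holds for 1068 bins. An end is the outermost 5 bins with values. The ght3 bin is itself 1 of the 5 bins of the left end of I, and both ght7 bins belong to the left end of II.

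**Figure D1:**
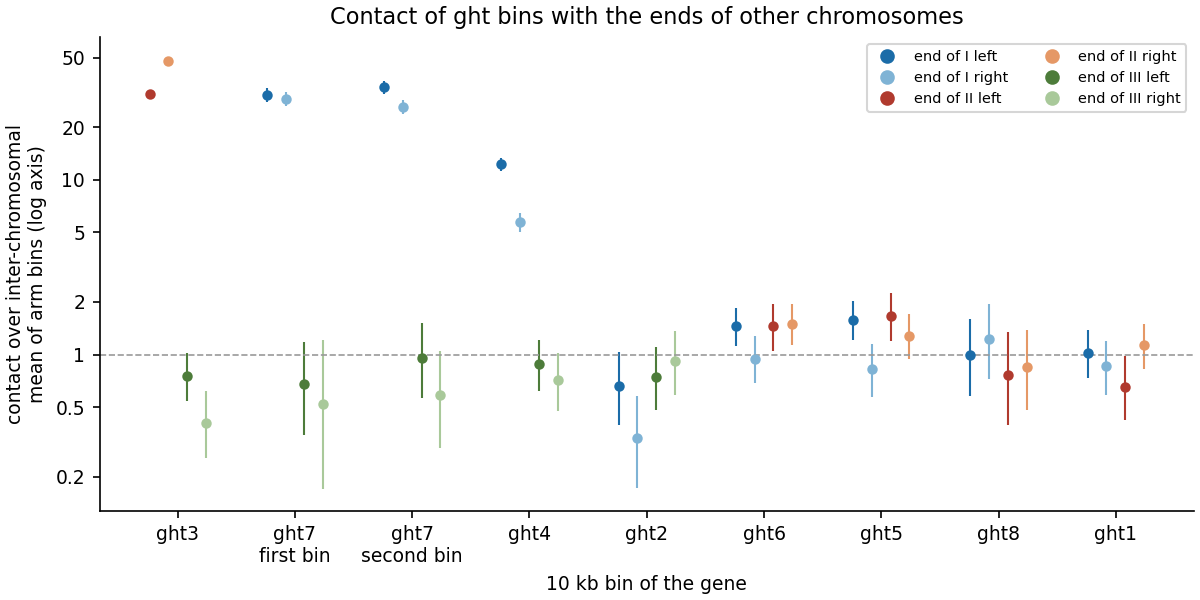
Contact of each ght bin with the ends of other chromosomes, as a fold over the inter-chromosomal mean on a log axis, with points for each end and bars for 95% Poisson intervals. ght3, ght7 and ght4 lie between 5.71 and 47.6 with the ends of I and II and below 1 with the ends of III, while the bins on III and ght2 lie between 0.332 and 1.66.

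ght5, the high-affinity glucose transporter gene, had 62 reads at the left end of I and 34 at its right end, then 41 at the left end of II and 46 at its right end. These were folds of 1.58 (1.21 to 2.03), 0.826 (0.572 to 1.15), 1.66 (1.19 to 2.25) and 1.29 (0.941 to 1.71). ght6 had 64, 43, 43 and 58 reads with the same ends, in the same order. Its folds were 1.45 (1.12 to 1.85), 0.947 (0.686 to 1.28), 1.45 (1.05 to 1.95) and 1.50 (1.14 to 1.94). In both bins the right end of I was the lowest of the 4, and the intervals of the 2 bins overlapped at every end.

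Taken over the 4 ends, the fold was 1.34 for ght5 (1.15 to 1.55, 183 reads) and 1.34 for ght6 (1.16 to 1.53, 208 reads). The running median, taken over bins up to 100 kb away on either side, was 0.728. Ratios to it were 1.84 (1.58 to 2.12) for ght5 and 1.83 (1.59 to 2.1) for ght6, which placed them 17th and 18th of the 1068 arm bins. Each was above the running median at all 4 ends. Over all arm bins, 5.15% reached 1.5 times the running median and 45.8% lay above it. These are the values for which the family was chosen, and nothing is read from that count.

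Over the 4 ends together the other genes of the cluster were lower. At the right end of I they were not. There ght8 and ght1 together had a ratio to the running median of 1.70 (1.27 to 2.24). That of ght5 and ght6 was 1.36 (1.08 to 1.70), and the intervals overlapped. ght8 had 63 reads with the 4 ends, a fold of 0.959 (0.737 to 1.23) and a ratio to the running median of 1.33 (1.02 to 1.70). ght1 had 145 reads, a fold of 0.916 (0.773 to 1.08) and a ratio of 1.27 (1.08 to 1.50). With a running median of 50 kb on each side the excess of both was gone, at 1.05 (0.805 to 1.34) for ght8 and 1 (0.844 to 1.18) for ght1. In uncorrected reads ght8 turned to 0.548 (0.421 to 0.701), and ght1 stayed at 1.27. With ends of 2 bins the interval of each included 1, at 1.16 (0.664 to 1.89) for ght8 and 1.08 (0.785 to 1.44) for ght1. Both were above the running median at 3 ends and below it at the left end of II, where the ratios were 0.877 (0.453 to 1.53) for ght8 and 0.748 (0.480 to 1.11) for ght1. Their intervals of fold reach those of ght5 and ght6 for ght8 but not for ght1.

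The raised stretch was wider than the family. The bin just before ght6 had a ratio of 1.58 (182 reads) and the second bin beyond ght1 had 1.65 (118 reads), with 1.26 between that bin and ght1. Neither holds a ght gene, and the second bin beyond ght1 holds no HindIII site. The bin 2 before ght6 had 1.10 and the bin 3 beyond ght1 had 0.855. Of the members, ght6 and ght5 were the 2 highest bins within 150 kb of ght5.

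**Figure D2:**
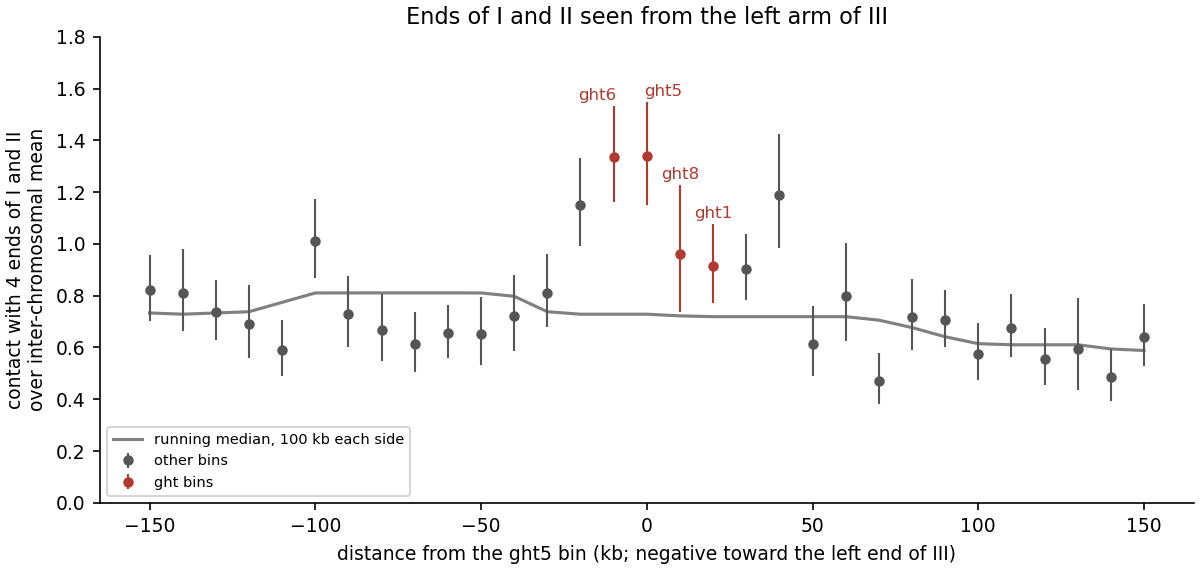
Fold of contact between each 10 kb bin of the left arm of III and all 4 ends of I and II against the distance of the bin in kb from the ght5 bin, with 95% Poisson intervals and the running median as a line. The ght6 and ght5 bins stand at 1.34, the ght8 and ght1 bins at 0.959 and 0.916, and the line near ght5 at 0.728.

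The reach of this contact along I and II was compared within the cluster. In steps of 50 kb from the ends of I and II, ght5 and ght6 together had folds of 1.27 (95 reads), 1.32 (492), 1.10 (367) and 0.929 (390). Divided by the median of the 17 other bins within 100 kb, these were 1.79, 1.76, 1.40 and 1.07, and from 150 to 500 kb the ratio stayed between 0.939 and 1.07. ght8 and ght1 together had ratios of 1.16 (46 reads), 1.47 (304), 1.55 (287) and 1.33 (339) in the same 4 steps, and 1.04 in the next. Their highest step was thus 100 to 150 kb from the end, while that of ght5 and ght6 lay within 100 kb. At 0 to 50 kb the intervals of fold, 1.03 to 1.56 and 0.606 to 1.10, overlapped. They also overlapped at 50 to 100 kb (1.21 to 1.45 and 0.984 to 1.24) and at 100 to 150 kb (0.993 to 1.22 and 1.08 to 1.37). The intervals of ght8 and ght1 in these last steps overlapped each other too, so a difference in reach within 150 kb is not settled.

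**Figure D3:**
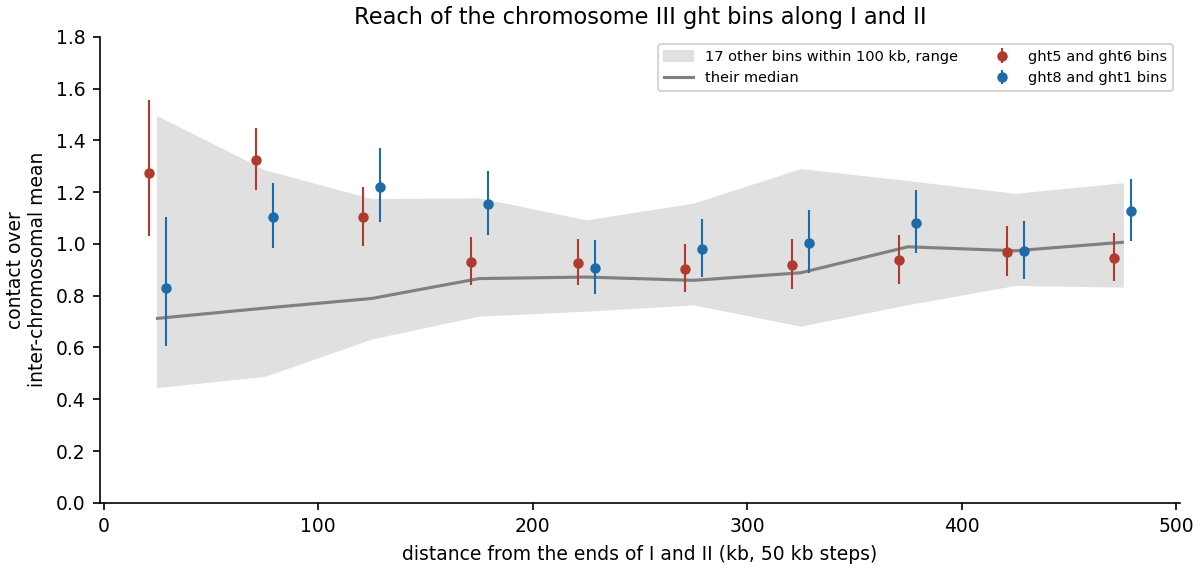
Fold of contact with I and II against distance from the ends of I and II in 50 kb steps, for ght5 with ght6 and for ght8 with ght1, with 95% Poisson intervals. The shaded range and line are the lowest to highest and the median of the 17 other bins within 100 kb; ght5 with ght6 is above that range at 50 to 100 kb, and ght8 with ght1 at 100 to 150 kb.

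Part of what ght5 and ght6 met at these ends was other members of the family. Of the 20 bins of the 4 ends, the ght3 bin gave them a fold of 1.92 (42 reads), 3.29 times the median of the 17 neighbours with it. The ght7 bins gave 2.04 (13 reads) and 1.99 (14 reads), 4.21 and 2.85 times that median. Bins without a ght gene were as high: the bin at 44.8 kb from the right end of II gave 2.06 (14 reads), 3.51 times the median, and the bin beside ght3 gave 1.95 (26 reads), 2.68 times. With the ght3 and ght7 bins left out of the ends, a setting added after seeing the data, the ratio of ght5 and ght6 to the running median was 1.53 in place of 1.84. ght5 and ght6 share no 30-base word with the ends of I and II.

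ght2, the member far from ends, had 19 reads with the left end of I and 12 with the right. Its fold with both was 0.495 (0.337 to 0.703), and its ratio to the running median was 0.695 (0.472 to 0.986), 1012th of 1068. With the centromere of its own chromosome it had 42 reads and a ratio to the running median of 1.90 (1.37 to 2.57).

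The subtelomeric members were set against bins at the same distance, within 10 kb, from the other ends of I and II. ght3 had 1195 reads with the left end of II and 2310 with the right, folds of 30.8 (29.0 to 32.5) and 47.6 (45.6 to 49.5). Over both it had 39.2 (37.9 to 40.5), against 14.9 to 33.2 in 7 reference bins, a ratio of 1.68 (1.63 to 1.74) to their mean. ght4 had 489 and 234 reads with the left and right ends of I. Its fold over both was 8.99 (8.34 to 9.67), against 4.88 to 8.48 in 7 reference bins, a ratio of 1.40 (1.30 to 1.51). Both were above all 7 of their reference bins, though the interval of ght4 included its highest one, 8.48. Just beyond the 10 kb limit, toward the ends, bins on the right arms of I and II were not counted. At 74.1 and 74.8 kb they had folds of 37.3 each, and at 144 and 145 kb folds of 8.66 and 7.84. With reference bins within 30 kb the ratios were 1.60 for ght3 and 1.23 for ght4.

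Neighbouring bins on the arms of ght3 and ght4 were high too. On the left arm of I the bin before ght3 had a fold of 40.1 and the bin after it 30.1. On the left arm of II, contact fell steadily from 13.3 at 135 kb through 8.99 in the ght4 bin to 4.82 at 175 kb. The ght4 bin also had a low log2 insulation score of -0.41, the 4th lowest of 432 bins on II. The bins beside it had -0.29 and -0.36, and whether there is a domain border apart from this slope was not tested. The other scored ght bins had scores of 0.05 to 0.39. The 30-base words that the ght4 bin shares with the left end of I, 2.55% of its words, are the same share as it has with the ght3 bin alone.

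ght7 did not stand above its reference bins. Its first bin had 454 reads with the left end of I and 486 with the right, a fold of 29.8 (27.9 to 31.8) over both and a ratio of 0.994 (0.932 to 1.06) to 3 reference bins that ran from 17.3 to 49.3. Its second bin had 554 and 479 reads, a fold of 30.0 (28.2 to 31.9) and a ratio of 0.830 (0.781 to 0.883) to 5 reference bins from 23.3 to 49.3. Both lay inside the range of their reference bins. For both bins together the ratio was 0.905 (0.865 to 0.946), against 0.472 (0.452 to 0.494) in uncorrected reads, 0.670 with ends of 2 bins, 1.08 with ends of 10 bins and 1.13 without the 5% least read bins, so its direction is not settled.

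**Figure D4:**
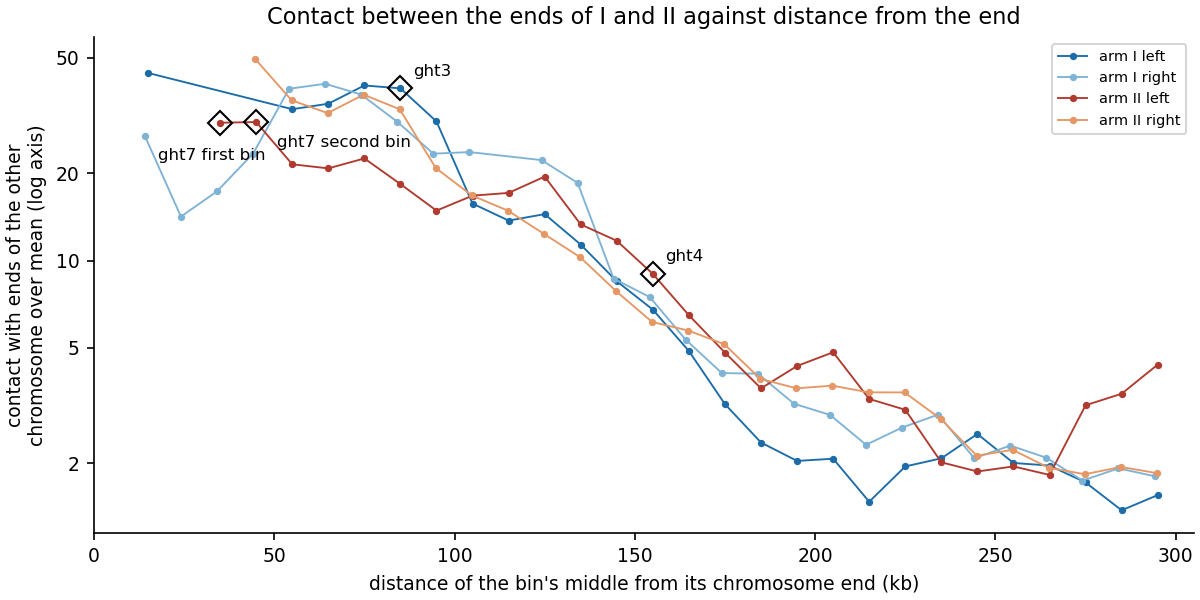
Fold of contact with the ends of the other chromosome, on a log axis, against distance of the bin's middle from its own end in kb, for the 4 end arms of I and II, with diamonds on ght bins. ght3 at 39.2 and ght4 at 8.99 lie above the other arms at their distance, and the ght7 bins at 29.8 and 30.0 lie among them.

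The ends of III were not a place of high contact for the family. For ght3, ght4 and the 2 ght7 bins the fold with both ends of III was 0.583 (64 reads), 0.796 (66 reads), 0.599 (17 reads) and 0.770 (29 reads). ght2 had 0.744 with the left and 0.922 with the right end of III. Within III the cluster bins had folds of 20.9 to 25.6 with their own left end, and their ratios to the running median were 0.992 to 1.01. Contact with the own end falls with distance, so the median of a window centred on a bin lies near that bin's value. These ratios therefore cannot show whether the bins were raised there. With the right end of III, on the other arm, folds ran from 0.649 for ght8 to 1.20 for ght1 with 12 to 44 reads. Thus the ght5 and ght6 bins were raised for the ends of I and II, and had ratios of 0.995 and 0.921 with the right end of III.

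With centromeres the members spread widely. ght7's 2 bins had folds of 2.79 (54 reads) and 2.65 (69 reads) with the centromere of I and 2.59 (29 reads) and 2.51 (27 reads) with that of III. The bins around them were high too. Ratios to the running median were 1.29 (0.973 to 1.69) and 1.34 (1.04 to 1.70) for I, and 1.49 (0.995 to 2.13) and 1.50 (0.989 to 2.18) for III. ght4 had 1.86 (95 reads) with the centromere of I, 1.36 times its running median (1.10 to 1.67). ght3 had 0.436 (38 reads) with the centromere of II and 0.648 (32 reads) with that of III. These were 0.790 (0.559 to 1.08) and 1.10 (0.754 to 1.56) times its running medians. ght5 had 1.25 (65 reads) with the centromere of II, 1.62 times its running median (1.25 to 2.06), while ght6 beside it had 0.631 (40 reads), 0.826 times (0.590 to 1.12).

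Contact among members on different chromosomes rested on few reads, with a median of 7 reads a pair. Of 21 such pairs with at least 1 arm bin, 15 lay above the mean of their distance class (all bin pairs whose bins lie equally far from their centromeres, to within 100 kb steps), and 8 reached 1.5 times it. Of all inter-chromosomal bin pairs, 45.6% lay above that mean and 9.27% reached 1.5 times. Summed over the 21 pairs, 158 reads gave a ratio of 1.29 (1.10 to 1.51). In uncorrected reads, which keep the low depth of these bins, the ratio turned to 0.651 (0.553 to 0.761). The pairs share bins, and the contact of ght5 and ght6 with the ends is part of this count, since ght3 and ght7 lie in those ends.

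The ght5 bin met the ght3 bin with 24 reads, 2.80 times the class mean (1.79 to 4.16) and 4.02 times the median of 17 neighbours of ght5 with ght3, all of which were lower. ght6 met ght3 with 18 reads, 1.78 times (1.06 to 2.81), and ght8 met it with 8 reads, 2.0 times (0.865 to 3.95). ght1 met ght3 with 11 reads, 1.21 times (0.604 to 2.17). With ght4, ght5 and ght6 each had 12 reads, 1.55 (0.801 to 2.71) and 1.32 (0.680 to 2.30) times. With the ght7 bins, ght5 and ght6 had 6 to 8 reads a pair and ratios of 1.77 to 2.0. Since ght3 and ght7 lie in the ends, these pairs belong to the contacts for which the family was chosen and are a description.

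Summed over partners, ght5 and ght6 had 93 reads with ght3, ght4 and ght7, a ratio of 1.87 (1.51 to 2.28). Of these pairs 8 of 8 lay above 1, against 45.6% of all inter-chromosomal bin pairs. The 8 pairs share bins, and those with ght3 and ght7 belong to the contacts for which the family was chosen. In uncorrected reads the ratio of ght5 and ght6 was 1.01 (0.817 to 1.24). Against the median of neighbours with the same partner, a setting added after seeing the data, it was 2.76 (2.23 to 3.38). ght8 and ght1 had 39 reads with the same bins, a ratio of 0.970 (0.690 to 1.33), with 4 of 8 above 1. It was 0.425 (0.302 to 0.580) in uncorrected reads and 1.53 (1.09 to 2.09) against neighbours, so its direction is not settled. ght2 had 2 reads with ght3, a ratio of 0.204 (0.0247 to 0.737), and ratios of 0.756 to 1.23 with the bins on III on 2 to 8 reads.

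ght3 met ght4 with 144 reads and the ght7 bins with 138 and 172. Since both sides lie near ends, these were set against bin pairs at the same 2 distances from ends of I and II. The ratio was 1.50 (1.26 to 1.77) for ght3 with ght4, above 13 of 16 reference pairs, 0.943 (0.793 to 1.11) for ght3 with the first ght7 bin and 1.11 (0.951 to 1.29) with the second. ght3 and ght4 share 255 words of 30 bases in their coding sequence, so reads placed at the wrong copy would count as contact between them, and the part of this was not tested. ght3 and ght7 share none.

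Within chromosomes, the 6 pairs of the cluster on III had 10537 reads and 1.07 times (1.05 to 1.09) the mean of pairs at the same separation. The interval included 1 after rebalancing without the diagonal (1.02, 0.996 to 1.04) and against the same arm only (1.02, 0.997 to 1.04), and uncorrected reads gave 0.474 (0.465 to 0.483). The lowest was ght8 with ght1 at 0.987 (1399 reads) and the highest ght6 with ght8 at 1.23 (1002 reads). Neighbours ght6 and ght5 had 3368 reads, 0.994 times (0.961 to 1.03). Of the 6 pairs, 4 lay above 1, against 46.0% of all pairs of one arm up to 30 kb apart. On II, ght4 met the ght7 bins with 129 and 177 reads, 1.72 (1.44 to 2.04) and 1.87 (1.60 to 2.16) times the mean at 120 and 110 kb. That mean covers whole arms, while ght4 and ght7 both lie toward the left end of II. These pairs were not set against pairs matched for distance from ends and were not repeated in uncorrected reads. ght2 met the other members on II with 1 to 6 reads.

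**Figure D5:**
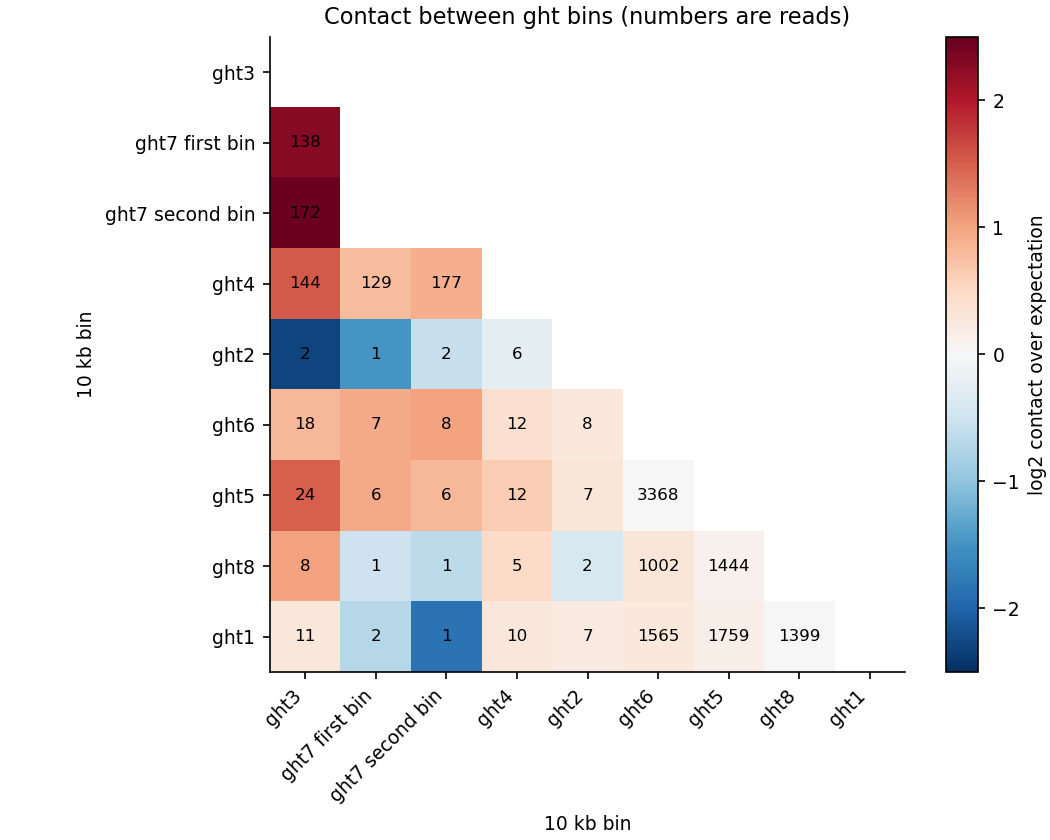
Contact between the 9 ght bins, with colour for the log2 of contact over expectation (distance class between chromosomes, equal separation within one) and the number of reads in each square. ght5 and ght6 are above expectation with ght3, ght4 and both ght7 bins, and ght2 is below it with ght3.

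Beyond the family, partners on other chromosomes with at least 30 reads existed only for ght3, ght4 and ght7, at 63, 40, 21 and 22 candidate bins, the last pair for the first and second ght7 bins. The highest for ght3 was the bin of abc3 and mug14 on II, at 7.56 times the distance class (95 reads), followed among bins far from ends by that of mic60 and ric8 at 4.87 (84 reads). It also met the bin of car1, the arginase gene, at 3.30 (61 reads). ght4 was highest with a bin of I at 134 kb from the right end, at 7.37 (143 reads), followed by the bin of put4, a proline permease gene, at 6.78 (132 reads). Far from ends, ght4 met the bin of pyk1, the pyruvate kinase gene, at 4.38 (38 reads). Both ght7 bins were highest with the bin of yhb1, a flavohaemoprotein gene, at 12.9 (206 reads) and 14.1 (247 reads), and next with that of klf1 at 9.46 (74 reads) and 11.9 (102 reads). The first ght7 bin met the bin of emi5 and acp1, 994 kb from the right end of I, at 6.89 (36 reads). None of these bins shares a 30-base word with its partner. They were picked as the highest of their candidates, so their sizes are a description. The distance classes count distance from centromeres and not from ends. Ratios of pairs with both bins near ends therefore hold the high contact between the ends of I and II. The partner bins of abc3, put4, yhb1 and klf1 lie 125, 84.1, 64.1 and 124 kb from an end.

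Other genes of sugar use were set beside the family, by the same ratio to the running median with the ends of I and II. Of 31 genes listed, 30 were found by name and 26 lay in arm bins, of which 10 were above 1 and 2 reached 1.5, with a median of 0.997, against 45.8%, 5.15% and a median of 1 over all arm bins. The 2 were gpa2, which encodes the G protein alpha subunit of glucose sensing, at 1.63 (1.34 to 1.97), and gld1, the glycerol dehydrogenase gene, at 1.57 (1.29 to 1.89). By list, 3 of 10 glucose sensing genes, 4 of 6 genes of other carbon sources, 2 of 4 genes of hexose phosphorylation and upper glycolysis, and 1 of 6 genes of TORC2 signalling and arrestins lay above 1. The hexokinase genes, whose products act on the imported sugar, were at 1.41 (1.17 to 1.69) for hxk1 and 0.872 (0.626 to 1.18) for hxk2. gad8 and aly3, a kinase and an arrestin that control where Ght5 sits in the cell, were at 0.883 (0.723 to 1.07) and 0.994 (0.824 to 1.19), and scr1, a repressor in glucose repression, at 0.745 (0.503 to 1.06).

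By correlation of contact with the 6 ends and 3 centromeres (9 values a bin, all from the same map), the arm bins most like ght5 were those of frp2 and rrp1402 at 0.89, mxr2 and rad3 at 0.89, hrp1 and hst4 at 0.86, fap2 and toe2 at 0.86, and mei2 and omt2 at 0.86. ght6 came 38th at 0.73, ght8 417th at 0.15, ght2 592nd at -0.06 and ght1 760th at -0.28. The 9 values include the contacts with the ends of I and II for which ght5 and ght6 were chosen. The fragment of ght6 also ends inside the ght5 bin. ght8 had only 12 to 21 reads with each target other than its own left end. The order of ght6, ght8 and ght1 is therefore a description.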

How the data were processed

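Hi-C of 2 sap1-1 cultures was deposited as 1 table. It holds a signal for each pair of 10 kb bins, iteratively corrected by the authors, as the equal row sums (57251.4 to 57251.5) of the deposited values show. The submitters' processing notes name Bowtie2 2.1.0 and ASM294v2. Whether replicates were pooled is not given in the sources used here, and a path in the file header bears the tag R1, so the map was treated as 1 sample. The 1258 bins include 40 blank ones.

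Reads were recovered by finding the factor per bin that makes values whole. All values under 30 reads came within 0.05 of a whole number, and 37526864 reads were recovered, 99.9% of the 37571192 in the file header. The median inter-chromosomal pair had 11 reads. PCR copies and the error of reference medians are not in the intervals. The centromere midpoint was the middle of each chromosome's longest gene-free stretch, with windows of 50 kb on each side.

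Genes came from the reference annotation. Named genes were the members, at most 2 neighbours of each member bin, the top 5 partner bins with at least 30 reads (neighbours within 2 bins merged), 4 carbon lists and the 5 bins most like ght5. Members and lists were chosen with earlier results of these data known. With 1 map, no test between groups was run. Alternatives covered the correction, windows, references and shallow bins. In a simulation of 400 bins, 100% of values under 30 reads were recovered, and 6 of 6 raised bins and 0 of 264 others reached 1.5 times the running median. The simulated rise was 2 times, over contact between chromosomes without any pattern of ends or centromeres. The simulation therefore cannot give the share of false calls in this map. Tables were handled with pandas 2.3.3 and NumPy 2.4.6 in Python 3.11.15, intervals came from SciPy 1.17.1 and plots from matplotlib 3.10.9.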

Additional observations from a re-analysis of the deposited data

How the results depend on the processing

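The contact of ght5 and ght6 with the ends of I and II (1.84 times the running median) stayed above 1 in all 9 alternatives, from 1.46 to 1.94. It moved to 1.55 with ends of 10 bins, to 1.46 with a running median of 50 kb on each side, and to 1.53 without the ght3 and ght7 bins, a setting added after seeing the data. The 3 subtelomeric members together (1.13 times matched bins) gave 1.31 without the 5% least read bins, 1.22 with ends of 10 bins and 1.10 with bins within 30 kb, and reversed to 0.950 in uncorrected reads and to 0.959 with ends of 2 bins. ght3 (1.45 to 1.92) and ght4 (1.23 to 1.61) stayed above 1 in all 6 alternatives, and ght7 rose above 1 without the same 5% (1.13) and with ends of 10 bins (1.08), and fell from 0.905 to 0.472 in uncorrected reads and 0.670 with ends of 2 bins. Contact between members on different chromosomes (1.29) was 1.76 against neighbours' medians, added after seeing the data, and 0.651 in uncorrected reads. Contact within the cluster (1.07) was 1.02 after rebalancing, 1.02 within the same arm only and 0.474 in uncorrected reads. In uncorrected reads ght8 fell to 0.548 and ght8 with ght1 to 0.908. Uncorrected reads keep each bin's depth, and the ght bins have fewer reads than the median bin. Contact with ght3, ght4 and ght7 in uncorrected reads was 1.01 for ght5 and ght6 and 0.425 for ght8 and ght1. ght5 with ght3 stayed between 2.33 and 4.02 in all 6 alternatives.

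No paired analysis was possible because there is 1 group and 1 map, and the columns of the map carry no replicate number. Nor was any replicate left out, for the same reason. At a median of 11 reads per inter-chromosomal pair, counting error is wide for single pairs of members.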
